A study of Mus musculus with 4 samples.

Results

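The cells described here were CD8+ T cells (Tc) of transplanted mice that carried mRNA of Nr4a2, Pdcd1 and Lag3 together, a combination used to mark terminally exhausted CD8+ Tc. Cells were kept with at least 500 genes detected, at least 1000 unique molecular identifiers (UMIs, each counting 1 captured mRNA molecule) and at most 10% mitochondrial UMIs. CD8+ Tc were cells with a UMI of Cd3d, Cd3e or Cd3g and a UMI of Cd8a or Cd8b1, and none of Cd4 or Klf1. The members were the CD8+ Tc with at least 1 UMI of each of Nr4a2, Pdcd1 and Lag3 and none of Tcf7, Cx3cr1, Mki67 or Top2a. There were 412 members among 4267 CD8+ Tc (9.66%) and 11632 cells in all (3.54%). They were set against the 3855 other CD8+ Tc, and against 2 narrower sets within these. The 460 Nr4a2-negative cells met every criterion of the members except that they had no Nr4a2 UMI, and the 431 Tcf7+Slamf6+ cells carried the marker pair of precursor exhausted CD8+ Tc.

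All 4 libraries came from spleens of irradiated BALB/c mice that bore WEHI-3B cells, a BALB/c acute myeloid leukemia (AML) line, and had received bone marrow and Tc of C57BL/6 donors. Each recipient was given 10000 AML cells and, on day 2, 200000 donor Tc, and Tc were isolated on day 23. In 2 libraries the donors were Havcr2fl/fl;E8icre/+ (below, E8icre), in which a Cre recombinase driven by a Cd8a enhancer acts in CD8+ cells on a floxed Havcr2 gene encoding TIM-3, and in the other 2 libraries the donors were Havcr2fl/fl without Cre (below, controls), so the floxed alleles were shared by both groups. Each library was 1 recipient. Mice were 7 to 12 weeks old, and donors and recipients were paired by sex, with the sex of each not given. Cre in the CD8+ lineage leaves Havcr2 intact in the CD4+ Tc and myeloid cells of the same recipients, and cells were stained with an oligonucleotide-tagged antibody against donor H-2Kb. The libraries held 38386626 and 31449644 gene UMIs (E8icre replicates 1 and 2) and 17693991 and 55045903 (control replicates 1 and 2).

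Exhaustion is a state that Tc enter when antigen persists. Signals from the T cell receptor (TCR) keep NFAT and its targets active, the NR4A nuclear receptors and the factor TOX are induced, and inhibitory receptors such as PD-1 (Pdcd1) and LAG-3 accumulate. Precursor exhausted cells retain the factor TCF-1 (Tcf7) and the capacity to divide, and terminally exhausted cells have lost both. In leukemia after allogeneic transplantation, donor Tc meet both leukemic and normal host antigens.

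Nr4a2 (chr2:57106830-57124003), Pdcd1 (chr1:94038305-94052553) and Lag3 (chr6:124904361-124911705, all GRCm38, minus strand) were the genes the members were selected on, so their levels are given as a description. To compare levels, the UMIs of all cells of 1 kind in a library were added up, divided by their total and given per 1000000 UMIs (CPM), with TMM scaling. Nr4a2 stood at 562 and 430.2 CPM in members of E8icre replicates 1 and 2, and at 376 and 782 CPM in those of control replicates 1 and 2. The highest level was thus in a control library and the lowest in the other one. Members had on average 546 CPM of Pdcd1 and 551 CPM of Lag3, close to the 526 and 496 CPM of the Nr4a2-negative cells and above the 286 and 257 CPM of all other CD8+ Tc.

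The rule counted single molecules. In 28 members each of the 3 genes was seen with exactly 1 UMI, and 167 members had exactly 1 UMI of Nr4a2. Just outside the rule lay the 460 cells that lacked only Nr4a2, 82 that lacked only Pdcd1, 92 that lacked only Lag3, 32 with a Tcf7 UMI, 48 with a Cx3cr1 UMI and 476 with a UMI of Mki67 or Top2a, of which 202 had a single one. Membership therefore followed depth in part. When cells were thinned to 2000 UMIs, leaving out shallower ones (195 CD8+ Tc, 8 of them members), and the rules were applied again, 202 of 3887 CD8+ Tc met the rule for members, which cells outside it at full depth could then enter. The members' median depth was 5112.5 and 6412.5 UMIs in the E8icre libraries and 7149 and 3080 in the control libraries, against 4744, 6134.5, 6963 and 3036 for other CD8+ Tc and 3844, 5507, 6390 and 2696 for the Nr4a2-negative cells in the same order. No cell barcode of a member recurred in another library, 1 member was called a doublet by Scrublet, and 6 members had low counts of the donor H-2Kb tag.

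Members were found in every library at similar shares. They made up 10.2% of CD8+ Tc (158 of 1542; 95% Wilson interval 8.83 to 11.9%) in E8icre replicate 1 and 8.75% (84 of 960; 7.12 to 10.7%) in E8icre replicate 2. In the controls they made up 10.8% (53 of 493; 8.31 to 13.8%) in replicate 1 and 9.20% (117 of 1272; 7.73 to 10.9%) in replicate 2. The 4 intervals, which cover counting error only, overlapped, and ordered by size the shares of the E8icre and control libraries interleaved. The mean share was 9.50% ± 1.06 (SD, n = 2) with Cre and 9.97% ± 1.10 (SD, n = 2) without, a log2 ratio of -0.07 (exact two-sided permutation test, p = 0.667, where 2 against 2 libraries cannot go below 0.33). At a fixed depth of 2000 UMIs the shares were 5.33% and 4.06% against 4.67% and 6.19%, a log2 ratio of -0.21 (exact permutation test, p = 0.667). A difference in the share of members between the genotypes was not detectable with these libraries.

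**Figure D1:**
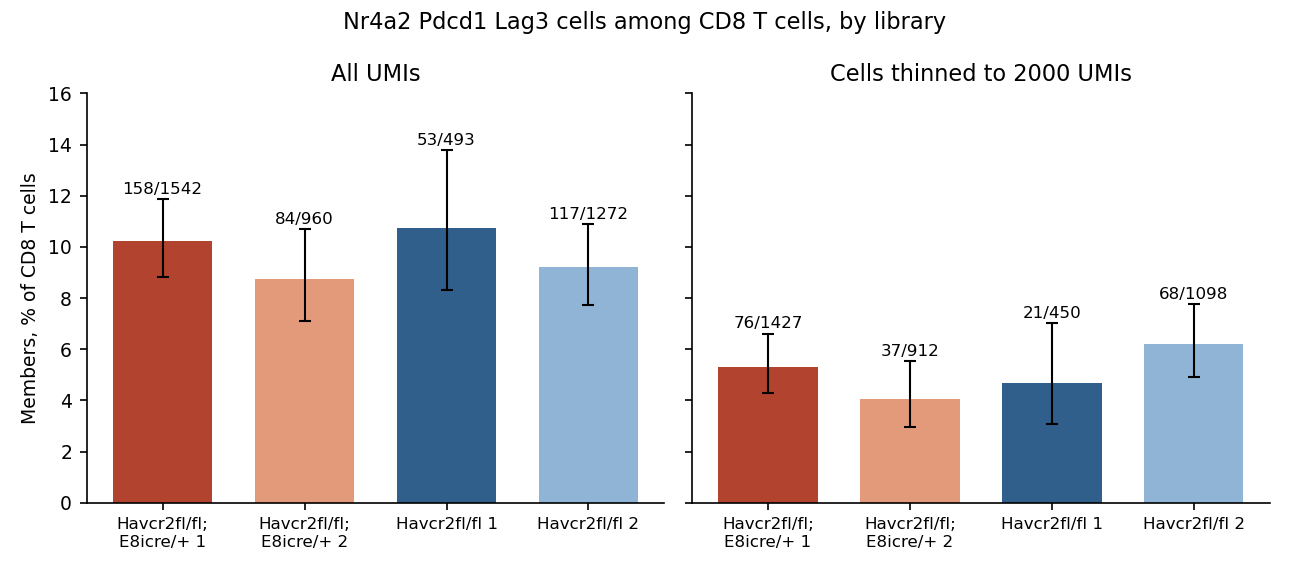
Share of members among CD8+ Tc in each library, as counted (left) and after thinning cells to 2000 UMIs and leaving out shallower ones (right), with 95% Wilson intervals. As counted, the shares lie between 8.75% and 10.8% and the E8icre and control libraries interleave.

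To ask what else marked these cells, the UMIs of members and of other CD8+ Tc were summed per library and compared with edgeR's quasi-likelihood test with the library as a block, so that the 4 recipients are the replicates, and with Benjamini-Hochberg adjustment over all genes tested at a threshold of 0.05. The 14 genes that the rule read were left out. Of 9465 genes tested, 1302 (13.8%) differed, 569 higher (6.01%) and 733 lower (7.74%) in members. Against the Nr4a2-negative cells 201 of 6145 genes (3.27%) differed, 114 higher (1.86%) and 87 lower (1.42%), and against the Tcf7+Slamf6+ cells 1107 of 6044 (18.3%) differed, 542 higher (8.97%) and 565 lower (9.35%). All these comparisons were made in the cells that the rule selected. With each cell's UMIs divided at random into 2 equal parts, the rule applied to one and the test to the other, 141 genes were higher and 275 lower than in other CD8+ Tc. Single libraries bore on the counts. Without E8icre replicate 1, 378 genes were higher than in all others, and the 201 differences from Nr4a2-negative cells became 69, against 127 without E8icre replicate 2, 131 without control replicate 1 and 181 without control replicate 2.

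Across 20 lists of genes by function or cell type, without Ccl3, one of the genes that named the cells, 105 genes were called against all other CD8+ Tc, and 77 of them kept the call with each library left out in turn. Of the 105, 20 were cell cycle genes, all of them lower. The rule on Mki67 and Top2a removed dividing cells from the members only. Over all genes tested, 13.8% were called against all others and 3.27% against the Nr4a2-negative cells. For the latter cells 39 list genes were called, of which 16 kept the call with each library left out. Those 16 were Ccl4, Ccl5, Tnfrsf9, Egr1, Rgs16, Eomes, Ikzf2, Gzma, Ifng, Bax and Hbb-bt among the higher genes, and Il7r, Ly6c2, Cxcr3, Ctsw and Id2 among the lower ones. Hbb-bt rested on few cells. A single member held 263 of its 279 UMIs in E8icre replicate 1, 381 of 396 in control replicate 1 and 294 of 710 in control replicate 2. Members of E8icre replicate 2 held 12 in all.

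Inhibitory receptors beyond the pair used by the rule were mostly higher in members than in other CD8+ Tc. Of 13 such genes tested, 9 were higher and 1 was lower, with a median log2 fold change of 0.55 against 0.01 over all genes. Against the Nr4a2-negative cells 2 of 10 were higher and none lower, with a median of 0.11.

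Havcr2, encoding TIM-3, was at 91.2 and 19.9 CPM in members of the E8icre libraries and at 74.1 and 209 CPM in those of the control libraries. In every library this was above the level in the other CD8+ Tc of the same recipient (54.7, 7.06, 50.9 and 107 CPM). The log2 difference was 0.85 (SE 0.14, adjusted p = 7.5e-05) against all others and 0.84 (SE 0.18, adjusted p = 0.0042) against the Nr4a2-negative cells, a call lost without E8icre replicate 1 (adjusted p = 0.18). The first call was lost after thinning to 2000 UMIs (log2 0.63, adjusted p = 0.29). A Havcr2 UMI was seen in 24.1%, 9.52%, 26.4% and 41.0% of members in the same order, and in at most 1.66% of cells without a Tc transcript in any library, although their median depth, 15910.5 UMIs, was higher.

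Cd244a, encoding the SLAM family receptor 2B4, was at 164, 186, 115 and 234 CPM in members against 92.8, 70.2, 43.2 and 100.1 CPM in other CD8+ Tc. Members and others did not overlap. The log2 difference was 1.18 (SE 0.11, adjusted p = 2.3e-08), and it was 0.42 (SE 0.12, adjusted p = 0.042) against the Nr4a2-negative cells, which held only with all libraries or without control replicate 2. Entpd1, encoding the ectonucleotidase CD39, was at 95.9, 107, 89.5 and 70.6 CPM in members and averaged 52.3 CPM in other CD8+ Tc, 72.9 CPM in Nr4a2-negative cells and 5.30 CPM in Tcf7+Slamf6+ cells. It was higher than in all others (log2 0.82, SE 0.14, adjusted p = 0.00013), and its difference from the Nr4a2-negative cells was 0.37 (SE 0.18, adjusted p = 0.39). Cd200r1 (log2 0.82), Tigit (0.84), Cd101 (0.76), Cd160 (0.55), Klrc1 (0.43) and Vsir (0.39) were also higher than in all others, while Btla, encoding an inhibitory receptor that binds HVEM, was lower (log2 -1.15, SE 0.33). The calls of Tigit, Btla, Cd101, Klrc1 and Vsir were lost without at least 1 library. Ctla4 was at 57.3, 21.7, 58.8 and 17.6 CPM in members, and its difference from all others, 0.35 (SE 0.21), did not pass the threshold.

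Per cell the receptors were unevenly seen. Members held UMIs of on average 3.63 and 4.02 of the 13 receptors in the E8icre libraries and 4.36 and 2.97 in the control libraries, against 2.87, 2.95, 3.38 and 2.23 in other CD8+ Tc. Thinned to 2000 UMIs, these means were 1.83, 1.71, 1.92 and 2.16 in members and 1.42, 1.29, 1.33 and 1.51 in the others. At this depth 10.1%, 15.5%, 11.5% and 3.64% of members held no UMI of any of them, against 21.6%, 27.1%, 23.6% and 22.1% of the others.

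**Figure D2:**
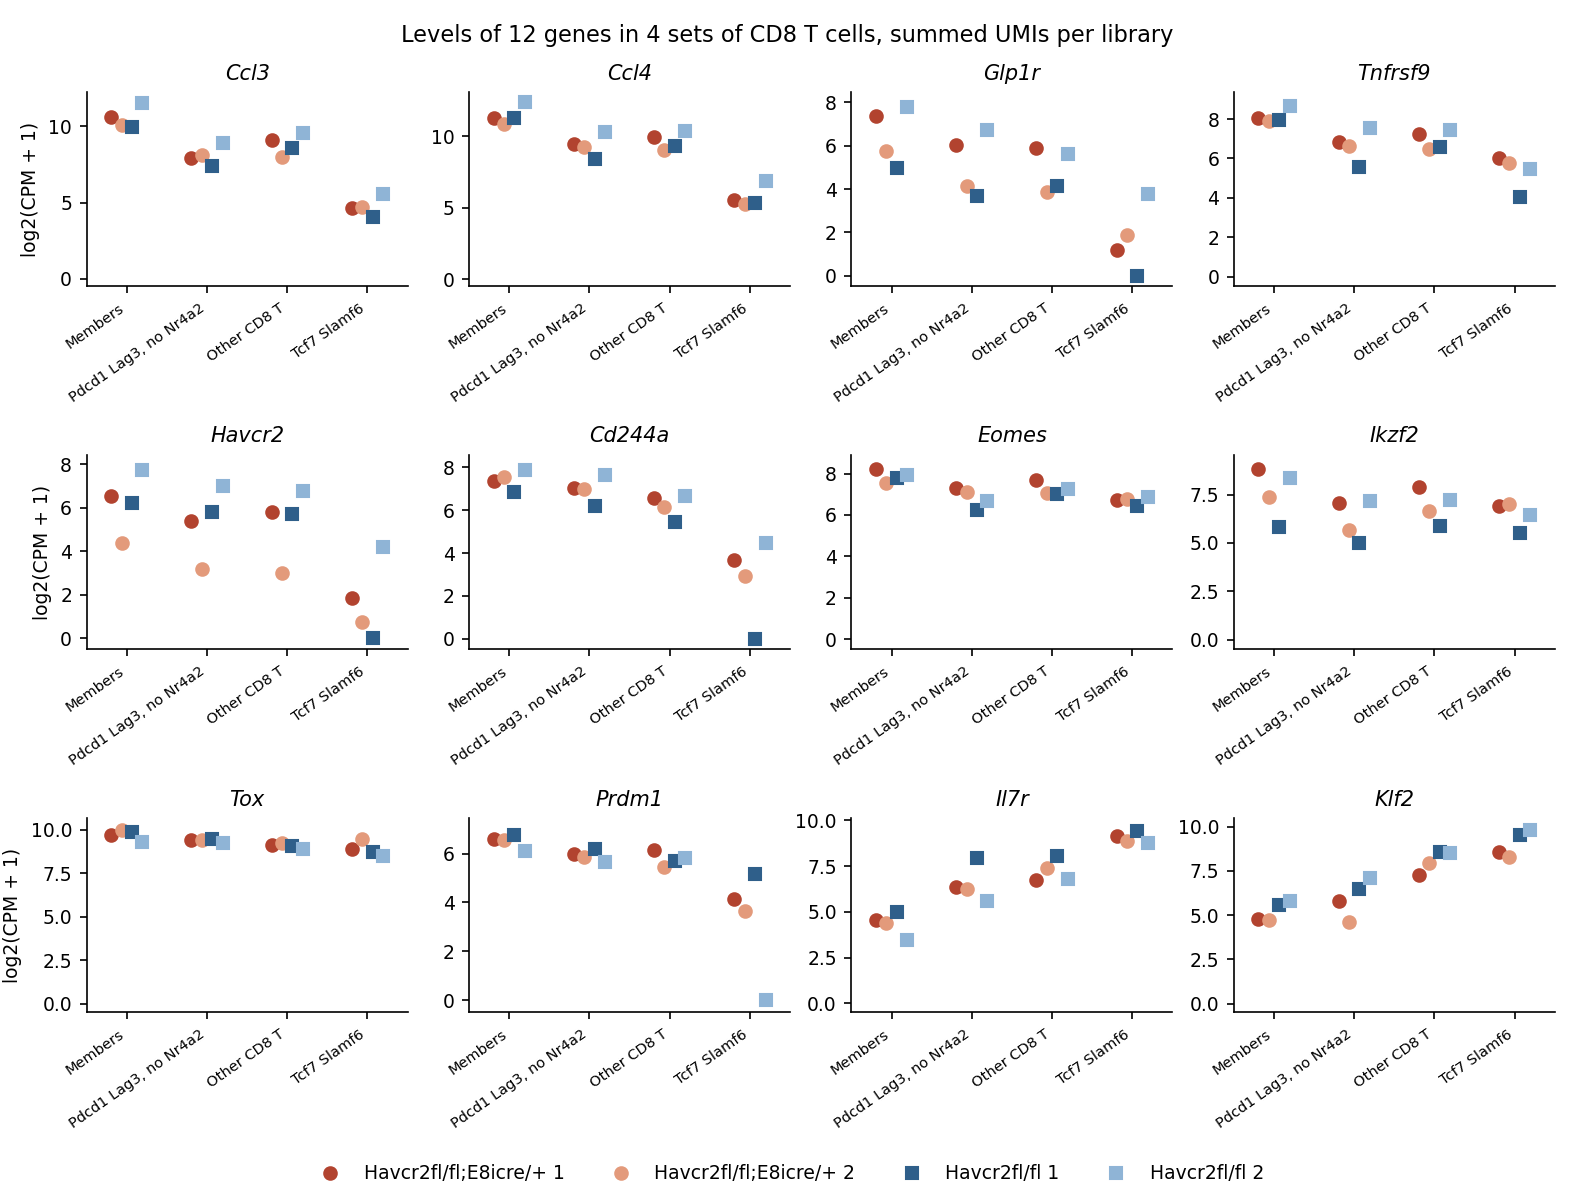
Levels of 12 genes as log2(CPM + 1) of summed UMIs in members, Nr4a2-negative cells, all other CD8+ Tc and Tcf7+Slamf6+ cells, with 1 point per library (circles E8icre, squares controls). Ccl3 and Ccl4 are highest in members in every library, Il7r and Klf2 are highest in the Tcf7+Slamf6+ cells, and Havcr2 is lowest in E8icre replicate 2 in the first 3 sets.

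Transcription factors of the exhausted state were higher in part. Of 15 tested, 9 were higher than in other CD8+ Tc and none lower (median log2 0.52). Against other CD8+ Tc with Tcf7, Cx3cr1, Mki67 and Top2a also at 0, 6 of 13 were higher and 2, Maf and Id2, were lower (median 0.21). Against the Nr4a2-negative cells 4 of 13 were higher and 1 was lower. Tox, encoding the HMG-box factor that establishes the exhausted chromatin state, was at 852, 1014, 946 and 640.4 CPM in members (E8icre replicates 1 and 2, then control replicates 1 and 2) and averaged 549 CPM in other CD8+ Tc and 680.0 CPM in the Nr4a2-negative cells. It was higher than in both, by log2 0.66 (SE 0.08) and 0.33 (SE 0.08, adjusted p = 0.019), the second call being lost without any one library but control replicate 2. Eomes, the T-box factor of late effector and exhausted cells, was at 292, 186, 222 and 242 CPM, and was higher by 0.62 (SE 0.09) than in all others and by 0.95 (SE 0.13, adjusted p = 9.7e-06) than in the Nr4a2-negative cells.

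Ikzf2, encoding the Ikaros family factor Helios, varied between the libraries, at 459.7 and 168 CPM in the E8icre libraries and 56.2 and 330.3 CPM in the control libraries. Its difference from the Nr4a2-negative cells of the same libraries (132, 50.7, 31.3 and 141 CPM) had the same sign in each, with a log2 of 1.56 (SE 0.13, adjusted p = 4.0e-10). Against all others the log2 was 0.89 (SE 0.11), and control replicate 1 alone showed no excess, with 57.1 CPM in the other CD8+ Tc. Prdm1, encoding the repressor Blimp-1, was at 95.9, 94.0, 107 and 68.1 CPM, higher by 0.74 (SE 0.14) than in all others and by 0.61 (SE 0.16, adjusted p = 0.028) than in the Nr4a2-negative cells, the second call again held only with all libraries or without control replicate 2. Nr4a1, the relative of Nr4a2, was scarce, at 16.4, 5.42, 23.0 and 20.2 CPM in members and 5.58 CPM on average in the others (log2 1.43, SE 0.35, adjusted p = 0.0060, lost without control replicate 1). Tox2, Nfatc1, Bhlhe40 and Ikzf3 completed the 9. Id2, which encodes an inhibitor of E proteins, was the gene lower than in the Nr4a2-negative cells (log2 -0.47, SE 0.07, adjusted p = 4.6e-05). Its difference from all others, 0.18, did not pass the threshold.

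Of the 21 list genes that were higher in members than in both other CD8+ Tc and Nr4a2-negative cells, Ccl3 again left out, 14 had a promoter in the RefSeq table. Of these, 5 had an AP-1-like motif in the 250 bases before a start that RefSeq gives. The motif was TGANTCA, read on both strands and itself near palindromic. N was any base, which is looser than the AP-1 consensus. The 5 genes were Havcr2, Cd244a, Prdm1, Bcl2a1b and Tnfrsf9. Tnfrsf9, whose call against the Nr4a2-negative cells was kept with each library left out, had the motif before 1 of its 2 RefSeq starts, 15 bases upstream and within an annotated exon. The calls of Havcr2, Cd244a and Prdm1 against the Nr4a2-negative cells were each lost without at least 1 library. The stretches of these 3 genes are shown for that motif, in capitals, 5′ to 3′ on the gene's strand. They are from RefSeq on GRCm38.p6, at chr11:46454681-46454930 (plus strand), chr1:171558943-171559192 (plus strand) and chr10:44458749-44458998 (minus strand), and none overlapped an annotated exon. The motif began 200, 122 and 48 bases before the start, and its centre base was T, G and A in the same order.
Havcr2: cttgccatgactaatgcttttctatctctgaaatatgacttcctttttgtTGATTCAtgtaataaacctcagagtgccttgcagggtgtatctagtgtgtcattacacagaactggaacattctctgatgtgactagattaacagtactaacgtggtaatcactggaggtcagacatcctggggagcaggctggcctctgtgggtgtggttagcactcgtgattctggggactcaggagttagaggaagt
Cd244a: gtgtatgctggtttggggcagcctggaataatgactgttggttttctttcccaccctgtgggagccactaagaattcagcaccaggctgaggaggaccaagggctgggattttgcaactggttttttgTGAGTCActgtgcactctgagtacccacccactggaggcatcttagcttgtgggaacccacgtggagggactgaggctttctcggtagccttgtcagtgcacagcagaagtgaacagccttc
Prdm1: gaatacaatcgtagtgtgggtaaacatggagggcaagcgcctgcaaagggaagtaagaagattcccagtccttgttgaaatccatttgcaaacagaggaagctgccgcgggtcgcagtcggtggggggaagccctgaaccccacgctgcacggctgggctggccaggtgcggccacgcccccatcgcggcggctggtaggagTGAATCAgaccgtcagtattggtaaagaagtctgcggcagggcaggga

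The AP-1-like motif, with any base in its centre, was present in the same window of 7.82% of 27025 promoters in the RefSeq table. It was present in 4.91% of the 7535 matched genes that were tested against other CD8+ Tc. Among genes higher in members it was present in 10.0% (44 of 440), and among genes lower in members in 3.49%. For the comparison with Nr4a2-negative cells the shares were 14.1% (12 of 85) among higher and 5.56% among lower genes, beside 4.82% of all tested. The NR4A monomer motif (AAAGGTCA, both strands) was present in 1.36% (6 of 440) of the genes higher than in other CD8+ Tc, 1.01% (76 of 7535) of those tested and 1.55% of all promoters. It was in 0 of 85 genes higher than in the Nr4a2-negative cells, beside 1.09% of those tested. These are counts of letters in a window, and binding was not measured.

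Genes induced by TCR signalling were higher in part. Of 15 tested, 8 were higher and 1 lower than in other CD8+ Tc (median log2 0.51), and 4 of 11 were higher than in the Nr4a2-negative cells. Tnfrsf9, encoding the costimulatory receptor 4-1BB, was at 263 and 240.4 CPM in E8icre members and 245 and 408 CPM in control members, against 151, 89.0, 96.5 and 176 CPM in the other CD8+ Tc. Each library's members were above every library's other CD8+ Tc (log2 1.18, SE 0.10, adjusted p = 1.9e-09), and the difference from Nr4a2-negative cells was 1.39 (SE 0.13). Egr1, an immediate early factor, was at 48.0, 77.7, 66.5 and 42.9 CPM and was higher by 1.21 (SE 0.18) than in all others and by 1.58 (SE 0.24, adjusted p = 6.5e-05) than in the Nr4a2-negative cells. Rgs16, a regulator of G protein signalling (log2 1.08 and 1.25), and Irf8, an interferon regulatory factor (0.72 and 0.74), were higher in both comparisons, but Irf8 kept the second call only without control replicate 2. Crtam, an adhesion receptor of activated Tc, was the gene that was lower (log2 -0.96, SE 0.26), a call lost without either E8icre library. Fos and Fosb had 3 and 2 UMIs in all members together, Egr3, Jun and Nr4a3 did not pass the filter on low counts, and Cd69 and Junb did not pass the threshold.

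The chemokines CCL3 and CCL4, which attract other immune cells, are encoded by neighbouring genes (Ccl3 at chr11:83647844-83649355, minus strand, and Ccl4 at chr11:83662584-83664683, plus strand). Ccl3 was one of the genes by which the cells were named, so its level is given without a test. It was at 1545 and 1103 CPM in E8icre members and 1012 and 2998 CPM in control members, above the 551, 249, 373 and 750.3 CPM of the other CD8+ Tc of the same libraries. Ccl4 was at 2501 and 1875 CPM in E8icre members and 2444 and 5382 CPM in control members, above every library's other CD8+ Tc (964, 512, 641 and 1322 CPM) and Nr4a2-negative cells (713, 598, 344 and 1268 CPM). The log2 difference was 1.82 (SE 0.08, adjusted p = 4.2e-14) from all others, 2.06 (SE 0.10, adjusted p = 2.3e-16) from the Nr4a2-negative cells and 5.71 (SE 0.14) from the Tcf7+Slamf6+ cells. Among genes with at least 50 CPM it was the leading gene higher in members than in all others.

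The 2 chemokines were concentrated in part of the members. A UMI of either was seen in 91.1% and 85.7% of E8icre members and 83.0% and 88.0% of control members. The median member held 9, 5.5, 6 and 10 such UMIs, and the richest cells held 187, 442, 309 and 371. Members in which they made up more than 1% of all UMIs numbered 20 (12.7%), 3 (3.57%), 4 (7.55%) and 29 (24.8%), and the richest cell of control replicate 2 spent 10.2% of its UMIs on them. The tenth of members with most Ccl3 held 50.3%, 67.5%, 64.6% and 53.7% of the Ccl3 UMIs. In cells without a Tc transcript Ccl4 UMIs were found in 3.27% on average over the libraries.

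**Figure D3:**
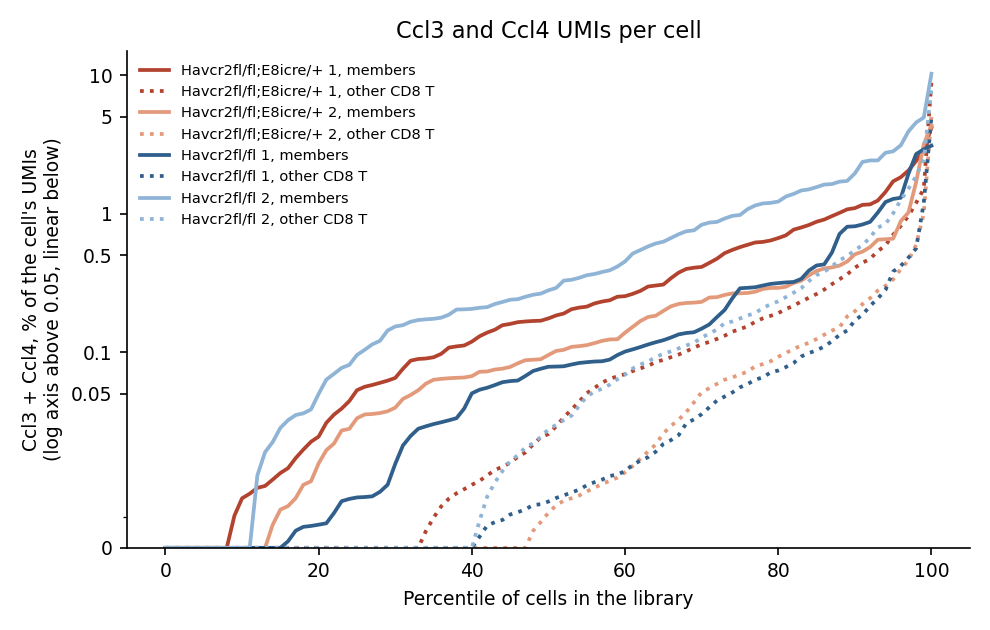
Share of each cell's UMIs that were Ccl3 or Ccl4 (symmetric log axis), against the percentile of cells within the library, for members (solid) and other CD8+ Tc (dotted). In each library the solid line lies above the dotted one over most percentiles, and the richest member of control replicate 2 exceeds 10%.

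Ccl5, a chemokine of memory and effector CD8+ Tc, was abundant everywhere and differed less, at 24924, 20642, 23183 and 30016 CPM in members (log2 0.74, SE 0.04, against all others, and 0.26, SE 0.04, against the Nr4a2-negative cells). Xcl1, which attracts cross-presenting dendritic cells, was at 2.34, 172, 5.11 and 103 CPM in members. Its 2 high values came from few cells, since 9.52% of members in E8icre replicate 2 and 2.56% in control replicate 2 had a UMI and the richest cells held 36 and 38. Ccl1 was at 0 in members.

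Glp1r (chr17:30901817-30940791), which encodes the receptor for the incretin GLP-1 and was also among the genes that named the cells, was at 167 and 52.4 CPM in E8icre members and 30.7 and 219 CPM in control members. It was seen in 36.7%, 22.6%, 15.1% and 37.6% of members, in 19.6%, 7.19%, 7.05% and 13.4% of other CD8+ Tc, and in at most 0.166% of cells without a Tc transcript. Its level in the other CD8+ Tc was 57.8, 13.5, 16.8 and 47.7 CPM. The same 2 libraries, E8icre replicate 1 and control replicate 2, were high in both classes.

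Cytokine and granule genes were higher in part. Of 9 cytokines and death ligands tested, 5 were higher than in other CD8+ Tc and none lower (Ifng, Il10, Fasl, Csf1 and Tnfsf10), and of 5 tested against the Nr4a2-negative cells only Ifng was. Ifng, encoding interferon-γ, was at 132, 132, 197 and 207 CPM in members against 77.9, 79.4, 97.6 and 107 CPM in the others, without overlap (log2 0.87, SE 0.10, adjusted p = 4.8e-07, and 0.74, SE 0.14, adjusted p = 0.0012, against the Nr4a2-negative cells). Il2 and Lta were at 0 in members. Among 9 granule genes 4 were higher than in all others and 3 higher and 1 lower than in the Nr4a2-negative cells.

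Gzma, encoding granzyme A, was at 2060.0, 1298, 1166 and 5065 CPM in members against 781, 426, 135 and 3932 CPM in the Nr4a2-negative cells (log2 1.48, SE 0.18, adjusted p = 1.0e-06). Control replicate 2 was high in both classes. A Gzma UMI was seen in 36.7%, 26.2%, 18.9% and 61.5% of members, and the tenth of members with most Gzma held 71.3%, 90.3%, 94.7% and 52.8% of its UMIs. Prf1, encoding perforin, was at 463, 269, 332 and 731 CPM and was higher than in all others (log2 0.91, SE 0.10) and than in the Nr4a2-negative cells (0.50, SE 0.10, adjusted p = 0.0025, but 0.060 without control replicate 2). Gzmb, encoding granzyme B, was at 524, 329, 258 and 802 CPM, with a difference of 0.01 (SE 0.09) from all others, and was higher than in the Tcf7+Slamf6+ cells (log2 2.56, SE 0.21). Ctsw, encoding the granule protease cathepsin W, was lower than in the Nr4a2-negative cells (log2 -0.55, SE 0.10).

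Among 12 costimulatory receptors 5 were higher than in all others and none lower, and 3 were higher and 1 lower than in the Nr4a2-negative cells. Besides Tnfrsf9 these were Tnfrsf1b, encoding TNF receptor 2 (log2 0.91 and 0.49), and Cd7 (0.80 and 0.39) in both comparisons, and Cd27 and Cd226 in the first. The receptor that was lower than in Nr4a2-negative cells was Slamf7 (log2 -0.80, SE 0.16). Of these differences from Nr4a2-negative cells, Tnfrsf9 kept its call with each library left out, while those of Tnfrsf1b, Cd7 and Slamf7 were each lost without at least 1.

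Genes of cell survival and death differed in part from the Nr4a2-negative cells, where 4 of 10 were higher and 1 was lower, but Bax alone kept its call with each library left out. Bcl2l11, encoding the pro-apoptotic protein BIM, was at 213 and 202 CPM in E8icre members and 176 and 154 CPM in control members, above the 146, 151, 82.1 and 132 CPM of the Nr4a2-negative cells of the same library (log2 0.55, SE 0.12, adjusted p = 0.0056). Bax, another pro-apoptotic gene (log2 0.62, SE 0.11), and the anti-apoptotic gene Bcl2a1b (0.39, SE 0.11) were higher too. The anti-apoptotic gene Bcl2 was at 271, 457, 297 and 313 CPM and was lower (log2 -0.41, SE 0.10, adjusted p = 0.011). Without E8icre replicate 1 the adjusted p was 0.13 for Bcl2l11 and 0.26 for Bcl2. Against all other CD8+ Tc, 4 of 13 were higher, among them Bcl2l11, Bcl2a1b and Bcl2a1d, and none was lower. Bcl2a1b and Bcl2a1d are near-identical copies whose reads may be split uncertainly.

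Genes of stem-like cells and of exit from tissue were in part lower in members. Of 14 tested, 9 were lower and 1, Cd27, was higher than in other CD8+ Tc (median log2 -1.89), and 11 of 12 were lower than in the Tcf7+Slamf6+ cells, which the rule on Tcf7 separates from the members. Against the Nr4a2-negative cells, for which the rule on Tcf7 was the same, 3 of 6 were lower. Il7r, encoding the interleukin-7 receptor that sustains memory cells, was at 22.2 and 19.9 CPM in E8icre members and 30.7 and 10.1 CPM in control members, against 81.1, 75.3, 246 and 47.0 CPM in the Nr4a2-negative cells. Members were below the Nr4a2-negative cells of every library (log2 -2.29, SE 0.21, adjusted p = 4.4e-09), and the difference from all others was -2.83 (SE 0.16). Klf2, a factor that drives S1pr1, was at 26.9, 25.3, 46.0 and 55.5 CPM and was lower than in all others (log2 -2.84, SE 0.13) and than in the Nr4a2-negative cells (-0.90, SE 0.21, adjusted p = 0.010), although in E8icre replicate 2 the Nr4a2-negative cells, at 23.3 CPM, were not above the members and the second call was lost without E8icre replicate 1 or either control. S1pr1, a receptor for exit from lymphoid tissue (-2.73), Lef1 (-1.88), Myb (-1.89) and Slamf6 (-1.92) were lower than in all others. Id3 had 3 UMIs in all members, and Ccr7 and Cxcr5 were at 0. Dapl1 was at 0 in members and at least 39.6-fold lower than in the Tcf7+Slamf6+ cells, taking 3 UMIs over all members as the limit.

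Genes of short-lived CX3CR1+ effector cells, which the rule on Cx3cr1 kept out of the members, were mixed, with 1 higher and 5 lower of 11 than in all others. Ly6c2, encoding a Ly6C surface protein, was at 21.1, 32.5, 23.0 and 27.7 CPM in members against 67.6, 45.2, 97.8 and 125 CPM in Nr4a2-negative cells, which did not overlap (log2 -1.58, SE 0.23, adjusted p = 3.1e-05). The chemokine receptor gene Cxcr3 was lower too, at 33.9, 38.0, 38.4 and 42.9 CPM against 72.1, 98.6, 111 and 81.4 CPM (log2 -1.24, SE 0.18). Klrg1, an inhibitory receptor of terminal effector cells, was at 0 in members and 218 UMIs in the others, at least 6.94-fold lower. Zeb2, a repressor that promotes terminal effector differentiation, was higher than in the Nr4a2-negative cells (log2 0.93, SE 0.24, adjusted p = 0.018), a call lost without either E8icre library.

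Of 10 residency and retention genes 4 were higher (Rgs1, Runx3, Cd38 and Cxcr6) and 2 lower (P2rx7 and Ccr2) than in all others. Against other CD8+ Tc with the same 4 genes at 0, none of 10 was higher and 4 were lower, among them P2rx7, Ccr2 and Itga1, and the median was -0.03. In the comparison with the Nr4a2-negative cells 2 of 7 were lower. They included the integrin gene Itga1 (log2 -1.27, SE 0.24). Itga1 was uneven, at 23.4, 59.7, 2.56 and 22.7 CPM in members, and its call was lost without E8icre replicate 1 (log2 -0.98, adjusted p = 0.14).

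Cell cycle and glycolysis genes depended on the comparator. All 20 cell cycle genes tested were lower than in other CD8+ Tc (median log2 -1.86), among them Hmgb2 at 491, 481, 557 and 461 CPM against 1875, 1810.2, 1909 and 1854 CPM, but the rule required Mki67 and Top2a at 0 and so removed dividing cells from the members only. Against the Nr4a2-negative cells, which met the same requirement, none of 12 passed the threshold (median 0.27). Of 15 glycolysis genes, Eno1, Tpi1, Ldha and Pgk1 were lower than in all others (log2 -0.39 to -0.43) and Hk1 was higher (0.46). None of 13 passed the threshold against the Nr4a2-negative cells. A further comparator, the other CD8+ Tc with the same 4 genes at 0, gave 465 differences among 7310 genes (6.36%), 248 higher (3.39%) and 217 lower (2.97%). In that comparison 2 of 12 cell cycle genes were higher (Mcm2 and Mcm3) and 1 lower (Tubb5), and of 14 glycolysis genes Hk1 and Tpi1 were higher and none was lower, so Tpi1 changed direction. The inhibitory receptors had 4 of 11 higher (Havcr2, Cd244a, Entpd1 and Cd200r1) and none lower, the TCR-induced genes 5 of 13 higher and none lower (median log2 -0.04), and the costimulatory receptors 3 of 12 higher and 1 lower. Among 10 genes of stem-like cells and egress 6 were lower and 1, Xcl1, was higher. Of the interferon-stimulated genes 1 of 12, Bst2, was lower than in all others.

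**Figure D4:**
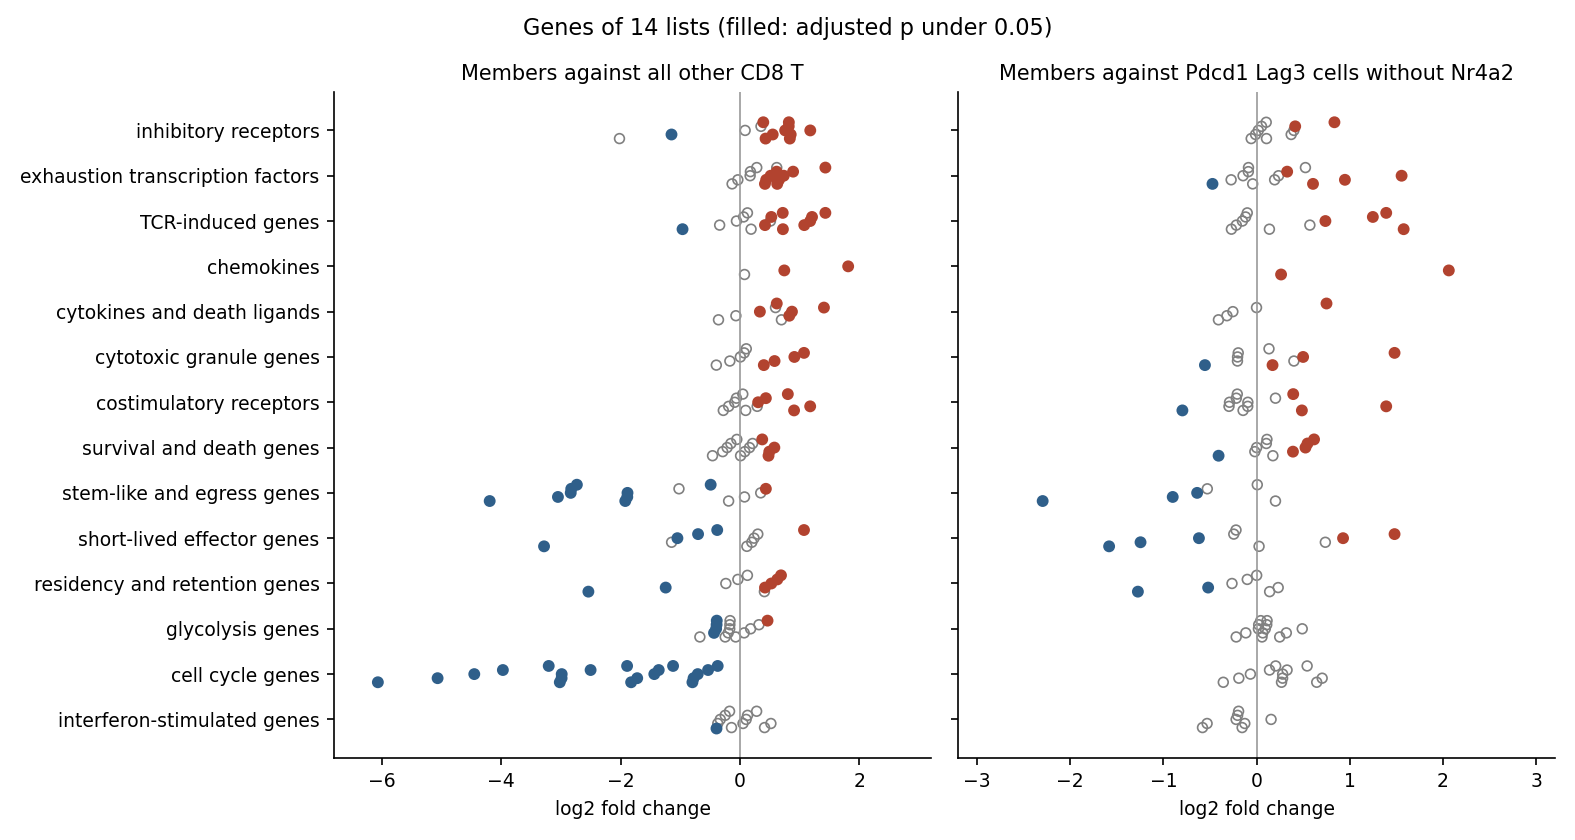
Log2 fold changes of the genes of 14 lists in members against all other CD8+ Tc (left) and against Nr4a2-negative cells (right), with filled points for adjusted p under 0.05. Genes without a UMI in members and Ccl3 are left out. Cell cycle genes lie below 0 on the left and around 0 on the right, while Il7r, at -2.83 and -2.29, stays low on both sides.

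Other genes led the comparisons by size. Ccl3 and Glp1r aside, after Ccl4 and beside Egr1, the genes with at least 50 CPM that were highest relative to all other CD8+ Tc were Slc16a11, a monocarboxylate transporter (log2 1.40), Cela1, an elastase (1.38), Ccrl2, an atypical chemokine receptor (1.30), Frmd4a (1.21), Hic1, a repressor (1.21), and Filip1 (1.19). None of these 6 genes, nor Egr1, kept its call after thinning to 2000 UMIs (adjusted p from 0.076 for Filip1 to 0.83 for Cela1), and Hic1 also lost it when the rule and the test used separate UMIs. Slc16a11 was at 95.9 and 72.3 CPM in E8icre members and 48.6 and 50.4 CPM in control members, above the 30.9, 21.5, 22.4 and 33.8 CPM of the others. The genes that were lowest were nearly all mitotic or histone genes (Hmmr, Ccna2, Tpx2, Knl1, Cenpf, Pclaf, Hist1h3b, Hist1h3c and Hist1h2ab). The exception was Ifitm1, an interferon-induced membrane protein, with 3 UMIs in all members against 49.4, 9.52, 115 and 185 CPM in the others.

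Among genes with at least 50 CPM in the higher class and the same direction in all libraries, and Ccl3 aside, those that led relative to the Nr4a2-negative cells were Ccl4, Cd55, Egr1 and Ikzf2 upward and Il7r, Ckb, Ly6c2, Itga1 and Cxcr3 downward. Cd55, encoding the complement regulator decay-accelerating factor, was at 67.8, 45.2, 17.9 and 75.6 CPM in members against 21, 6.85, 1.96 and 18.8 CPM (log2 2.06, SE 0.29, adjusted p = 1.0e-05). Control replicate 1 was lowest in both classes, and its members lay below the Nr4a2-negative cells of E8icre replicate 1 and control replicate 2. Ckb, encoding a creatine kinase, was lower (log2 -1.61, SE 0.26). The adhesion receptor gene Adgrg1 separated members from the Tcf7+Slamf6+ cells (135, 88.6, 112 and 116 CPM against at most 6.61 CPM, log2 4.53, SE 0.27).

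Markers of other cell types were checked in the members, here as CPM without TMM scaling. Of 12 myeloid and leukemia markers, Cd14, Fcgr3 and Cebpa were at 0 and the 12 together reached 65.0, 33.9, 71.9 and 47.8 CPM. S100a9, the most abundant over the 4 libraries, gave 22.5, 7.13, 22.3 and 10.1 CPM of these. In other CD8+ Tc they summed to 232, 663, 3068 and 251 CPM, and all 7 that were tested were lower in members. Of 8 B lineage markers, Cd79b, Ms4a1 and Pax5 were among those at 0, and the sum was 299, 278, 347 and 806 CPM, mostly Igkc, against 302, 3217, 308 and 2541 CPM in other CD8+ Tc. All 3 B lineage markers tested were lower than in all others, although the sums were nearly equal in E8icre replicate 1 and higher in members in control replicate 1. Among 8 NK and γδ T markers, Ncr1, Klra8 and Trdc were at 0 and the sum was 218, 422, 122 and 159 CPM, of which Tcrg-C2 gave 195, 168, 102 and 103 CPM. In E8icre replicate 2 Fcer1g had more UMIs (109) than Tcrg-C2 (94). Tcrg-C2 was higher (log2 0.48) and Tyrobp lower (-2.47) than in all others. The Treg and helper list summed to 551, 296, 127 and 436 CPM, of which Ikzf2 gave 465, 166, 54.6 and 329.8 CPM, with Cd40lg at 0. Ikzf2 and Ikzf4 (log2 1.27) were higher than in all others. Of 4 sex-linked genes tested 1, Eif2s3y, was higher (0.37), and Xist was at 0 in members. The Y chromosome genes Ddx3y (67, 44, 29 and 35 UMIs), Eif2s3y, Kdm5d and Uty were seen in members of every library.

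Erythroid mRNA gave higher sums than these lists in the members of every library but E8icre replicate 2. The 10 erythroid markers summed to 2952 and 239 CPM in E8icre members and 11186 and 15394 CPM in control members, mostly Hbb-bs, against 5746, 3229, 7364 and 3966 CPM in other CD8+ Tc. These sums are likewise without TMM scaling. Nearly all of it lay in a few cells. Globin UMIs exceeded 1% of all UMIs in 2, 0, 1 and 4 members, and these 7 cells held 94.4% of the members' globin UMIs in E8icre replicate 1, 97.7% in control replicate 1 and 96.4% in control replicate 2. The median member held 1, 1, 2 and 1. No erythroid marker passed the threshold against all other CD8+ Tc. Against other CD8+ Tc with the same 4 genes at 0, 4 of 5 tested were higher (median log2 1.30). The 4 globin genes were higher than in the Nr4a2-negative cells (log2 2.36 to 2.61), and the other results of that comparison were computed again without the 7 cells and others like them, which gave 238 genes in place of 201.

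The 2 groups of libraries differed by label in whether the donors carried the Cre, and within the members the genotypes were compared with 2 libraries each. Havcr2 itself comes first. Relative to the controls, at 74.1 and 209 CPM, it was low in E8icre replicate 2 (19.9 CPM) but not in the library labelled E8icre replicate 1 (91.2 CPM), which lay between the controls. The log2 difference was -1.26 (SE 0.54, adjusted p = 1.00). Without E8icre replicate 1 it was -2.81, and without control replicate 1 it was -1.81. Without E8icre replicate 2 it was -0.64, and without control replicate 2 it was -0.32. In these fits 1 library stood for a genotype and gave no spread of its own, so only the sizes are given. The reads come from the 3′ end of transcripts and the floxed exons are not given in the sources used here, so a Havcr2 count need not report the deletion, and directions drawn from E8icre replicate 1 rest on its label.

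No gene of 5917 tested passed the threshold between genotypes (0%). With edgeR 200 genes had an unadjusted p under 0.05, and DESeq2 called none either. With a library left out, 1 library stood for a genotype and gave no spread of its own, so calls of those fits are not read as genotype differences. With 2 libraries a group, 906 genes (15.3%) had both E8icre values above both control values, and 889 (15%) had both below. None of the 20 gene lists had a called gene. Tigit, encoding an inhibitory receptor for CD155, was at 7.02 and 7.23 CPM in E8icre members and 35.8 and 32.8 CPM in control members, without overlap, and its log2 difference of -2.24 (SE 0.51) had an adjusted p of 0.66. The same libraries were low and high in the other CD8+ Tc (3.73 and 3.68 against 20.3 and 19.7 CPM). Klre1, an NK-type lectin receptor, was at 48.0 and 88.6 CPM in E8icre members and 17.9 and 7.56 CPM in control members (log2 2.35, SE 0.50, adjusted p = 0.55).

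A test of whether the genotype difference in members was unlike that in other CD8+ Tc called 10 of 10129 genes (0.0987%), all lower. They included erythroid genes (Hbb-bs, Hbb-bt, Hba-a1, Hba-a2, Alas2 and Bpgm), interferon-induced genes (Isg15 and Rsad2) and Apol11b. Without TMM scaling, Hbb-bs was at 1710 and 128 CPM in E8icre members and 6299 and 8660 in control members, and without the cells over 1% globin it was at 82.5 and 128 against 149 and 285. Isg15, on the same scale, was at 40.2 and 42.8 CPM in E8icre members and 59.5 and 249 CPM in control members, where a single cell of control replicate 2 held 63 of its UMIs. DESeq2 called 1 gene with all cells. Without the globin-rich cells neither edgeR nor DESeq2 called any of 10087 genes, and 487 had an unadjusted p under 0.05 with edgeR.

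**Figure D5:**
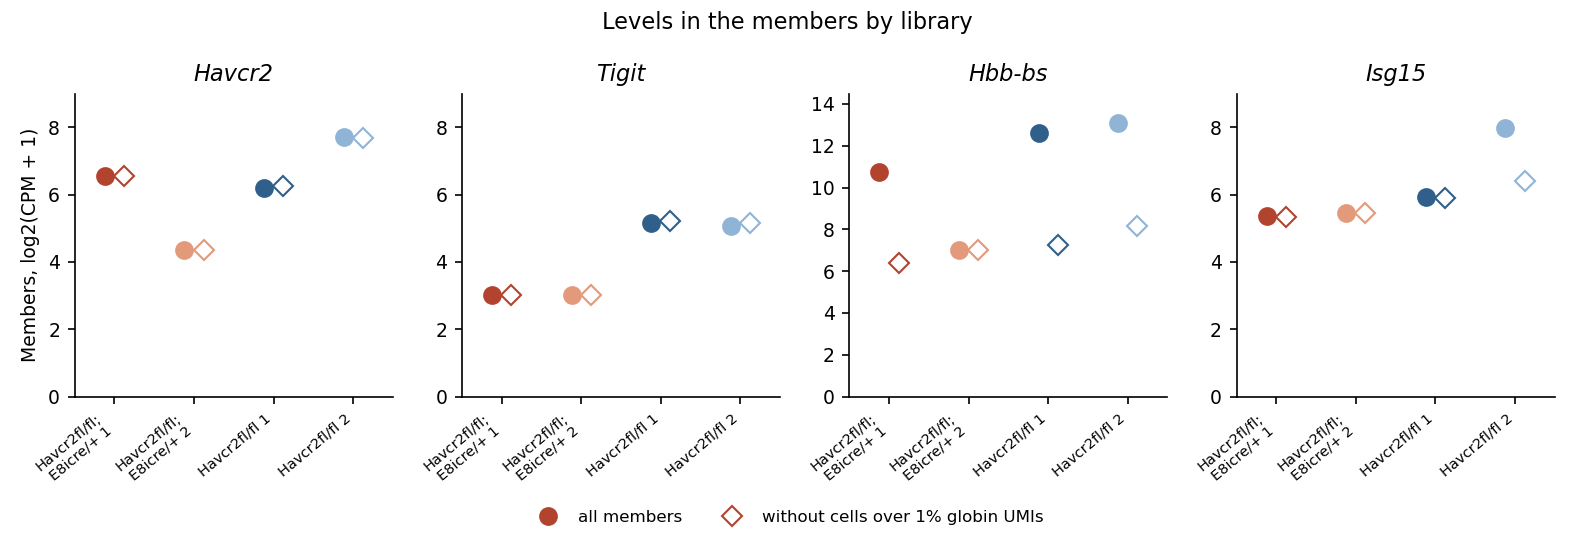
Levels of Havcr2, Tigit, Hbb-bs and Isg15 in members of each library as log2(CPM + 1), here without TMM scaling, for all members (filled circles) and without the cells over 1% globin UMIs (open diamonds). Havcr2 and Tigit barely move when the 7 cells are left out, while Hbb-bs falls from 8660 to 285 CPM in control replicate 2.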

How the data were processed

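Libraries were prepared with a 10x 3′ kit, and the submitters' processing notes name Cell Ranger 6.1.2 and mm10. The deposited matrices are unnormalized counts of UMIs over 15784 barcodes, with 32285 genes and a single antibody tag as features and 142576164 gene UMIs in total. Cells were filtered and gated as given above, doublets were marked with Scrublet (scanpy 1.11.5) and kept. The members and the 20 gene lists were chosen with earlier results of these data known. UMIs were summed per library and class, genes filtered with filterByExpr, and compared with edgeR 4.0.16 (TMM, quasi-likelihood, library as block, Benjamini-Hochberg). The fits were also run on simulated counts in which every gene had the same dispersion and no single cell stood out. That run cannot show how the tests behave on sums that rest on few cells. In comparisons of cell classes, adjusted p-values rest on 4 libraries, or fewer where 1 was left out. With the library as a block they cover how the difference within a recipient varied, not the spread of levels between recipients. Without the block, 552 genes in place of 1302 were called against other CD8+ Tc. Named genes were the rule genes and markers, up to 10 genes each way (5 for the narrower sets and for genotype) by fold change among those called, with the same direction in all libraries and at least 50 CPM in the higher class, and the most abundant members of each list. Genes of few or no UMIs were given as limits from 3 UMIs over all members. DESeq2 1.42.0, other filters, left-out libraries, thinning to 2000 UMIs and a split of UMIs were alternatives. In the genotype comparison of members, 2 libraries were set against 2. The SE beside a log2 difference is the size of that difference divided by the square root of the test's F statistic. Of the 32285 gene identifiers 99.8% matched GENCODE M21 (GRCm38), which gave gene positions. Some genes counted in these lists and calls are not reported here by name.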

Additional observations from a re-analysis of the deposited data

Results flagged for a closer look

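For 10 genes the difference between E8icre and control libraries in the members was unlike that in other CD8+ Tc, by the interaction term of the edgeR fit. As log2 differences of the 2 genotype effects, these included -3.29 for Hbb-bs, -2.84 for Hbb-bt, -3.13 for Hba-a1, -3.25 for Hba-a2, -3.56 for Alas2 and -2.76 for Bpgm, all expressed in red cell precursors, -2.33 for Isg15 and -4.84 for Rsad2, both induced by interferon, and -5.11 for Apol11b. The highest single member of control replicate 1 held 2481 of the 2539 Hbb-bs UMIs of that library's members, and that of E8icre replicate 1 held 1365 of 1446. For Rsad2 the richest member of control replicate 2 held 19 of 30 UMIs, and for Apol11b 14 of 30. None of the 10 was called once cells over 1% globin UMIs were removed.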

How the results depend on the processing

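The count of genes higher than in other CD8+ Tc, 569, was 321 with DESeq2, 76 after thinning to 2000 UMIs, 248 against other CD8+ Tc with the same 4 zeros, 141 when the rule and the test used separate parts of the UMIs, 188 with no replicate block and 378 to 431 with a library left out (378 without E8icre replicate 1). The count lower, 733, was 478, 112, 217, 275 and 364 in the same order, and 543 to 655. Against Nr4a2-negative cells, 201 genes became 47 with DESeq2, 29 thinned and 69 to 181 with a library left out (69 without E8icre replicate 1, 127 without E8icre replicate 2, 131 without control replicate 1). Against Tcf7+Slamf6+ cells, 1107 became 610 with DESeq2, 257 thinned and 843 to 1150 with a library left out. For genotype in members, 0 became 37 without the filter on low counts, 7 with a replicate block and 11 to 56 with a library left out, where a lone sample is assumed to vary like the other group. The 10 genes of the interaction became 1 with DESeq2, 26 without the filter, 5 thinned, 0 without globin-rich cells and 15 to 26 with a library left out (21 without E8icre replicate 1, 18 without E8icre replicate 2, 26 without control replicate 1). Havcr2 between genotypes, -1.26, was -1.23 without the filter (adjusted p = 0.013 with edgeR) and -1.29 with the replicate block. It was -2.81 to -0.32 with a library left out (-2.81 without E8icre replicate 1 and -1.81 without control replicate 1). The interaction reversed for Alas2 after thinning (1.66) and for Hbb-bs without globin-rich cells (0.11). Thinning also ended the calls against other CD8+ Tc for Slc16a11, Cela1, Ccrl2, Frmd4a, Hic1, Egr1, Filip1, Havcr2 and Entpd1, the split ended that for Hic1, and without the block Havcr2 had an adjusted p of 0.56. Of the list genes called, 32 of 105 against other CD8+ Tc and 12 of 39 against Nr4a2-negative cells kept the call after thinning, 19 and 9 being too low to test there, and 83 and 14 with DESeq2. Of 622 values of named genes counted under alternatives, 596 were classed as keeping direction and side of the threshold, 24 lost the call and 2 reversed. Nearly all of these genes were named because they were called, and settings in which a gene was not tested were not counted. The count therefore does not measure how well calls hold in general. The count has 0 gained calls, so it does not show the call that Havcr2 gained between genotypes without the filter on low counts. Thinning leaves fewer members and UMIs, and the cause of the other changes was not tested. The removal of globin-rich cells was chosen after seeing the data.

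The replicate numbers of the 2 genotypes are shared in the labels without a stated pairing, so the numbers were not taken as pairs. The members' deviations of same-numbered libraries had a correlation of -0.0235 over 5917 genes. With 2 libraries a genotype the deviations mirror each other, so this value cannot decide whether the numbers mark pairs. The log2 ratio of the share of members, -0.07, was -0.07 with the block.

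Members of a library held 397244 to 845571 UMIs, and each genotype had 2 recipients. Sums below 3 UMIs over all members cannot be told from 0.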

Other observations

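TCR variable gene segments were read in a minority of cells, since the 3′ libraries seldom cover them. Each cell was given the segment with most UMIs. Among members with a beta segment in E8icre replicate 1, 10 of 38 (26.3%) carried Trbv13-1, against 36 of 301 other CD8+ Tc (12%), and 8 of 38 (21.1%) carried Trbv29, against 92 of 301 (30.6%). Trbv13-1 was carried by 6 of 39 members against 23 of 353 others in E8icre replicate 2. The counts were 1 of 19 against 9 of 179 in control replicate 1, and 3 of 22 against 10 of 177 in control replicate 2. The leading beta segments differed between libraries. They were Trbv2 in E8icre replicate 2 (7 of 39), Trbv15 in control replicate 1 (4 of 19) and Trbv19 in control replicate 2 (4 of 22). Among alpha segments, Trav16 was carried by 8 of 21 members (38.1%) of control replicate 1, against 34 of 170 other CD8+ Tc. In control replicate 2 Trav16n led in both classes, with 8 of 25 members (32.0%) and 73 of 223 others (32.7%). Trav10 was carried there by 3 of 25 members, against 0 of 223. Members used 10, 16, 11 and 8 beta segments and 15, 17, 11 and 12 alpha segments in E8icre replicates 1 and 2 and control replicates 1 and 2. Segments with similar sequence may share reads, and a segment does not identify a clone.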
